A study of Homo sapiens with 6 samples.

Results

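The RNA exosome was followed through its 10 numbered subunit genes, EXOSC1 to EXOSC10, in K562 cells, a BCR::ABL1-carrying erythroid leukaemia line from chronic myeloid leukaemia. The members were the count rows whose NCBI Gene ID belonged to one of these symbols. All 10 were found among the 25702 gene identifiers of each library, and all 10 were among the 15431 genes tested. The cells had been nucleofected with a pCMV-HA plasmid that was empty (EV), carried full-length MXD3 or carried STIM1::MXD3, a fusion found in childhood acute myeloid leukaemia. Each group had 2 mRNA libraries, numbered replicate 1 and replicate 2. Every group therefore carried the same backbone and the same nucleofection step, and the CMV promoter drove each insert. The labels give no other treatment and no time of harvest. The study's methods state a default time after transfection for expression assays, without naming these libraries. In RNA from a bulk culture, a change in a share of the cells and a change in the RNA of every cell cannot be told apart.

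The RNA exosome is a nuclear and cytoplasmic machine that degrades or trims RNA from its 3' end, and it is unrelated to the secreted vesicles of the same name. EXOSC4 to EXOSC9 form a ring of RNase PH-like proteins that has lost its catalytic activity in humans, and EXOSC1, EXOSC2 and EXOSC3 sit on it as an RNA-binding cap. EXOSC10 is a nuclear 3'-to-5' exonuclease that joins this core, and the nuclease DIS3 joins at the opposite face. The complex matures ribosomal RNA and removes short-lived nuclear transcripts. MXD3 belongs to the MYC network of basic helix-loop-helix factors, in which a partner called MAX allows binding to the E-box CACGTG and MXD proteins repress genes that MYC activates. The fusion keeps the DNA-binding part of MXD3 and lacks its amino-terminal repression domain, so each comparison asked whether exosome transcripts differed when either protein was overexpressed.

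EXOSC5 and EXOSC2 are shown by sequence because EXOSC5 was the member with a canonical E-box among those with a promoter window, and because EXOSC2 had the largest fitted difference of any member between plasmid groups and no E-box of the 3 forms searched. RefSeq promoter windows, each beginning at -250 relative to the annotated start and ending shortly after it, were matched for 8 of the 10 members. EXOSC1 and EXOSC4 had none in the table. The windows come from the RefSeq table on GRCh38.p14 and each was found once, letter for letter, on its GRCh37 chromosome. The stretch from -250 to -41 is printed 5' to 3' on the strand of the gene, where +1 is the first transcribed base. Capitals mark CACGTG and CGCGTG, the reverse complement of the related form CACGCG. EXOSC5 is at chr19:41903305-41903514 on the minus strand and EXOSC2 at chr9:133568897-133569106 on the plus strand of GRCh37.
EXOSC5: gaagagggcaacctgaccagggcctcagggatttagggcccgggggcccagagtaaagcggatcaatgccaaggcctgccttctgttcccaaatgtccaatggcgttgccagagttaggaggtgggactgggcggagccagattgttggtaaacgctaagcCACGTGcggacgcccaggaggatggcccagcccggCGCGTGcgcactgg
EXOSC2: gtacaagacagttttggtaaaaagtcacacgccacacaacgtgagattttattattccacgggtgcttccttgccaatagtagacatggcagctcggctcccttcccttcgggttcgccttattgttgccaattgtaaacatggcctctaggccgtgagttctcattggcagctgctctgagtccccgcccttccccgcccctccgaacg
In EXOSC5 the first CACGTG began at -89, a second began at +15, outside the printed stretch, and the CACGCG form began at -54 on the opposite strand.

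On both strands, CACGTG was present in 1 of the 8 members with a window and in 7.26% of all 35114 windows of the same length. CACGCG was present in 3 members (EXOSC3, EXOSC5 and EXOSC10) and in 11.4% of all windows, and CATGTG in 0 members and 11.1% of all windows. EXOSC3 had 2 windows and was counted if either held the letters, while the percentages are of single windows. Its CACGCG was in window 1 and not in window 2. The GC box GGGCGG was present in 7 of the 8 members, EXOSC9 being the exception, and in 45% of all windows. CCAAT occurred in EXOSC2, EXOSC5, EXOSC9 and EXOSC10 (34.6% of all windows), TATAAA in EXOSC8 (11.5%) and the ETS core CCGGAA in EXOSC3 (17.2%). The 3 E-box forms cannot start at the same base of a strand, and the matches describe letters, since no binding was measured.

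Total counts per library ran from 53048343 to 63835779, and the members had between 1040 counts (EXOSC4) and 10773 counts (EXOSC10) in a library. The labels were checked on MXD3 itself, whose level was 9.33 and 11.7 CPM (counts scaled to library size, with factors from the trimmed mean of M-values, TMM) in EV, 2523 and 2162 CPM with MXD3 and 1975 and 1849 CPM with the fusion. STIM1 was at higher values in the fusion libraries (471 and 453 CPM against 159 to 204 CPM elsewhere), although its adjusted p against EV was 0.359 in edgeR. All 7 K562 markers were found, from 145 CPM for HBZ to 1633 CPM for HBG2 at the extremes. CD3E and CD14 stayed below 1 CPM, MS4A1 was at 0, and the epithelial marker EPCAM stood at 77.9 to 100.5 CPM. The largest split among the libraries followed the replicate number, which no source describes as a batch: 2020 genes were called higher and 2479 lower in replicate 2.

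The mean CPM of all 10 subunits, not scaled to transcript length, lay above the median of the genes tested. Their means over 6 libraries lay between 23.8 CPM (EXOSC4) and 171.9 CPM (EXOSC10), and the median of all genes tested was 21.7 CPM. In replicate 1 of EV (20.9 CPM) and of the fusion (19.0 CPM), EXOSC4 was below that median. Among the cap proteins, EXOSC1 was the steadiest member, with 34.1 to 39.4 CPM and a coefficient of variation of 5.09%. EXOSC2 was the most variable, with 23.3 to 41 CPM and a coefficient of 20.8%. EXOSC3 ran from 40.5 to 48.8 CPM. In the ring, EXOSC7 ran from 37.05 to 45.5 CPM, EXOSC8 from 41.2 to 50.2 CPM and EXOSC9 from 59.2 to 74.4 CPM. The variation of EXOSC4 (16.7%) and EXOSC6 (14.8%) came next to that of EXOSC2.

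**Figure D1:**
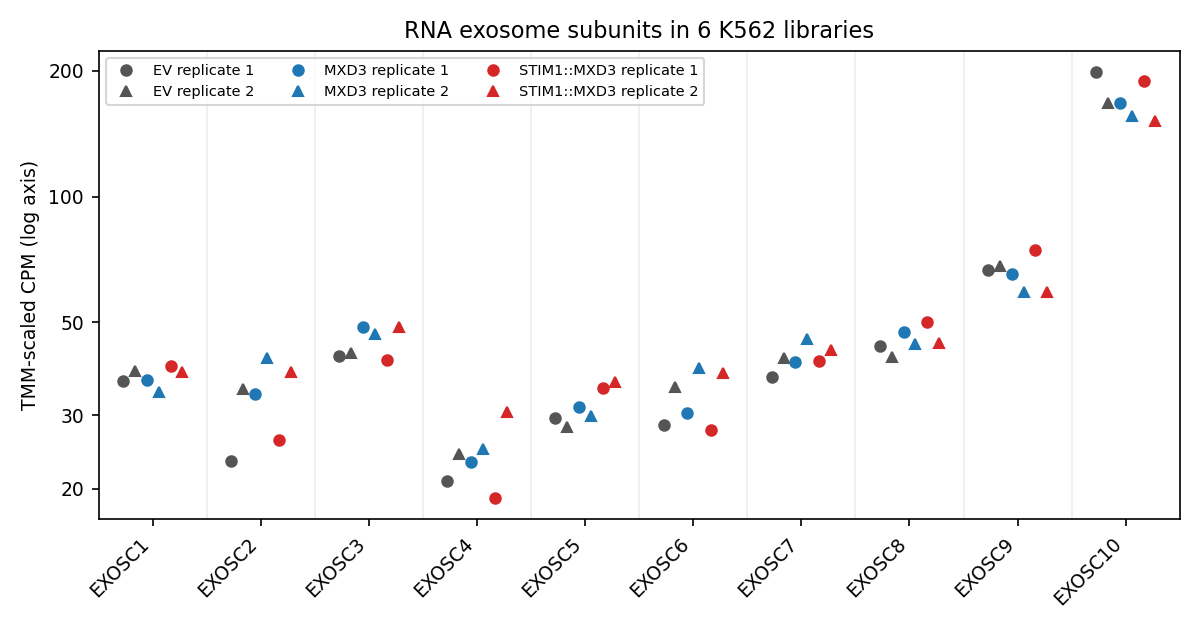
TMM-scaled CPM of each RNA exosome subunit in each of the 6 libraries, on a log axis. Colours are the plasmid groups, circles replicate 1 and triangles replicate 2. EXOSC10 stands above the other members in every library. The triangles of EXOSC2, EXOSC4, EXOSC6 and EXOSC7 lie above the circles of the same group, and those of EXOSC8 and EXOSC10 below.

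Levels of different genes were compared per kilobase of the canonical GENCODE transcript, a scale for levels and not for differences. The order was led by EXOSC10 with 61.5 ± 6.64 CPM per kb (SD, n = 6), followed by EXOSC9 (41.3 ± 3.63), EXOSC7 (39.5 ± 2.74) and EXOSC8 (38.9 ± 2.66). EXOSC1 (32.4 ± 1.65), EXOSC5 (31.6 ± 3.13), EXOSC4 (28.2 ± 4.70) and EXOSC3 (24.7 ± 2.06) formed the middle. EXOSC2 (16.3 ± 3.40) and EXOSC6 (6.39 ± 0.95) were lowest. Neighbours whose 6 libraries did not overlap were EXOSC10 and EXOSC9, EXOSC8 and EXOSC1, EXOSC3 and EXOSC2, and EXOSC2 and EXOSC6, and the other neighbours overlapped. The 9 core subunits, which the assembled particle holds in equal number, thus spanned 5.64-fold to 8.77-fold from lowest to highest within a library. EXOSC6 was the lowest in every library. EXOSC10 was 1.51 to 2.41 times the median core subunit, lowest in replicate 2 of the fusion and highest in replicate 1 of EV. The order, the span of the core and the ratio of EXOSC10 to it all rest on the length used. With the union of all annotated exons EXOSC10 was still the highest. On that scale EXOSC4 came to rank 2, EXOSC6 to rank 7 and EXOSC8 to rank 10.

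**Figure D2:**
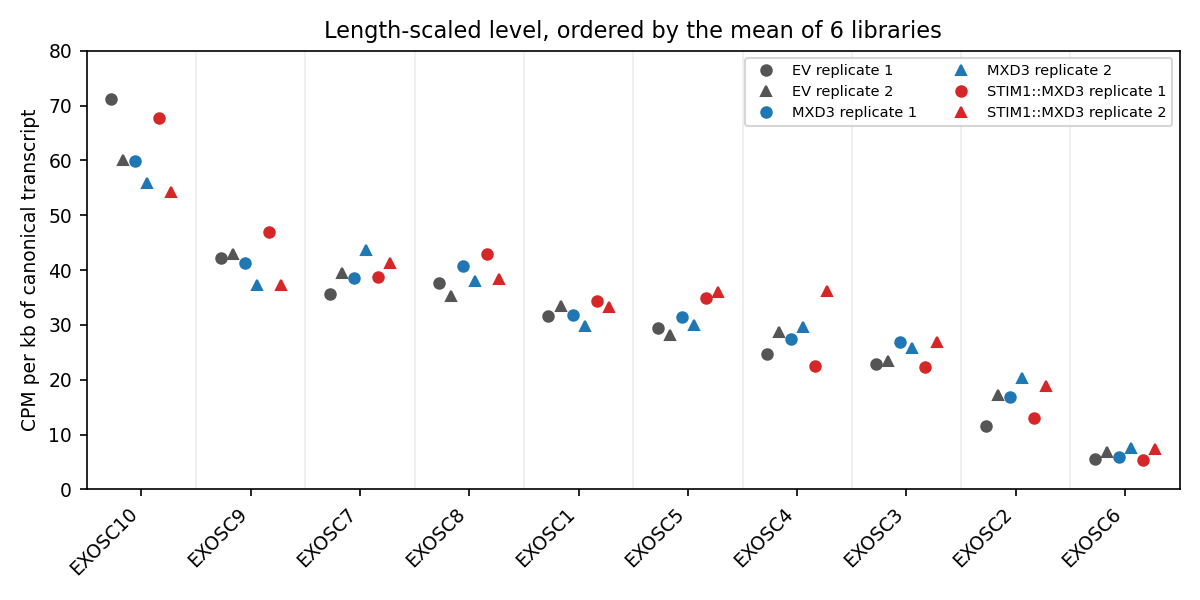
CPM per kb of canonical transcript for each subunit in each library, ordered by the mean. Colours are plasmid groups, circles replicate 1 and triangles replicate 2. EXOSC10 lies between 54.2 and 71.1, above every other member, and EXOSC6 lies lowest, between 5.34 and 7.54.

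The genes lie on 9 chromosomes in GRCh37, and some share exons with neighbours. EXOSC1 is at chr10:99195666-99205774, EXOSC5 at chr19:41892276-41903267, EXOSC6 at chr16:70280681-70285843 and EXOSC10 at chr1:11126675-11159926, all on the minus strand. EXOSC2 is at chr9:133569108-133582675, EXOSC7 at chr3:45016733-45077558, EXOSC8 at chr13:37572953-37600018 and EXOSC9 at chr4:122722473-122738176, all on the plus strand. EXOSC3 is at chr9:37759231-37832114 on the minus strand and EXOSC4 at chr8:145133551-145135551 on the plus strand. EXOSC6 is a gene of 1 exon, whose canonical transcript of 5163 bases holds 816 coding bases. No other gene overlaps the canonical exons of EXOSC1, EXOSC2, EXOSC5 or EXOSC6. Other genes overlap 90.5% of those of EXOSC4 (a long non-coding RNA on the opposite strand and a protein-coding model on the same strand), 26% of EXOSC8 (SUPT20H, opposite strand), 16% of EXOSC9 (CCNA2, opposite strand), 13.2% of EXOSC10 (EXOSC10-AS1 and a long non-coding RNA, opposite strand), 8.27% of EXOSC3 and 5.85% of EXOSC7 (CLEC3B). Whether strand was used in counting is not given in the sources used here, so reads in these stretches cannot be told apart. CCNA2, at 193 to 272 CPM, was above EXOSC9 in each library. EXOSC3 and EXOSC8 also have pseudogene copies in RefSeq (EXOSC3P1, EXOSC3P2 and EXOSC8P1), and how reads matching both were assigned is not known, so their values carry that uncertainty.

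With the fusion, no subunit passed the test against EV, and the fitted estimates of the 10 subunits ran from -0.11 to 0.30 on the log2 scale, with intervals that reached 0.75 (EXOSC2). In edgeR, 0 of 10 were called at an adjusted p under 0.05, 0 had an unadjusted p under 0.05, and DESeq2 also called 0. Of all genes tested, 0.00648% were called (MXD3 itself) and 0.953% had an unadjusted p under 0.05. The fitted log2 fold change was positive for 8 members and negative for 2, with a median of 0.09 beside 0.0096 for all genes. Taken by replicate number, the median difference was 0.12 in replicate 1 and 0.11 in replicate 2, with 6 and 7 members positive.

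EXOSC5, a ring subunit, had the largest difference with the fusion. Its level was 29.4 and 28.1 CPM in EV, 31.3 and 29.9 CPM with MXD3, and 34.8 and 35.9 CPM with the fusion. Both fusion libraries lay above all 4 others, and the MXD3 libraries lay between. On the log2 scale EXOSC5 differed from EV by 0.30 ± 0.13 (SE), or 1.23-fold, with a 95% interval of -0.004 to 0.60, and the adjusted p was 1.00 in edgeR (unadjusted 0.0524). The difference was 0.24 between the replicate 1 libraries and 0.35 between the replicate 2 libraries.

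EXOSC8, also in the ring, had 43.96 and 41.2 CPM in EV and 50.2 and 44.7 CPM with the fusion. Its groups did not overlap, yet its log2 fold change of 0.16 ± 0.13 (SE) had an interval that included 0. Both fusion libraries were thus above both EV libraries for 2 of 10 members, a share seen for 12% of all genes, and below them for 0 of 10, against 10% of all genes. Among the other members, the cap subunits EXOSC1, EXOSC2 and EXOSC3 had 0.06, 0.15 and 0.09, and the ring subunits EXOSC4, EXOSC6, EXOSC7 and EXOSC9 had 0.13, 0.04, 0.09 and -0.02. EXOSC10 had -0.11 ± 0.16. EXOSC3, EXOSC4, EXOSC6 and EXOSC9 had opposite signs in the 2 replicate numbers, as did EXOSC1 with a value near 0 in replicate 2.

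Full-length MXD3 also left all 10 subunits uncalled. In edgeR 0 of 10 had an adjusted p under 0.05 and 0 an unadjusted p under 0.05, DESeq2 called 0, and the shares over all genes were 0.00648% and 1.86%. This comparison used the same EV libraries as the fusion. The median log2 fold change was 0.10 beside 0.0011 for all genes, with 7 members positive and 3 negative. By replicate number it was 0.10 in both, with 8 and 7 members positive.

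EXOSC2, which binds RNA in the cap, had the largest value with MXD3. Its level was 23.3 and 34.7 CPM in EV and 33.8 and 41 CPM with MXD3, and the groups overlapped because replicate 2 of EV lay above replicate 1 of MXD3. The log2 fold change was 0.37 ± 0.26 (SE), with a 95% interval of -0.24 to 0.97 and an adjusted p of 1.00 in edgeR. Within replicate 1 the difference was 0.53, and within replicate 2 it was 0.24. The value was 0.11 without EV replicate 1 and 0.21 without MXD3 replicate 2, where EXOSC3 had 0.18 and 0.21. It was 0.68 without EV replicate 2 and 0.51 without MXD3 replicate 1.

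The MXD3 libraries did not overlap EV for 5 members. EXOSC3 (0.19 ± 0.14), EXOSC5 (0.09 ± 0.13) and EXOSC8 (0.11 ± 0.13) were higher in both, 3 of 10 against 16.2% of all genes. EXOSC9 (-0.11 ± 0.15) and EXOSC10 (-0.18 ± 0.16) were lower in both, 2 of 10 against 14.8% of all genes. None of these 5 passed the test. EXOSC10, the nuclear nuclease, had 198.8 and 167.8 CPM in EV and 167.7 and 156.3 CPM with MXD3, so that the groups missed each other by little. EXOSC9 had 66.9 and 68.1 CPM in EV and 65.5 and 59.3 CPM with MXD3.

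Between the fusion and full-length MXD3, which differ in the amino-terminal part, no subunit passed the test. The median log2 fold change was 0.04 beside 0.0083 for all genes, 6 members were positive and 4 negative, and the range was -0.22 (EXOSC2) to 0.21 (EXOSC5). By edgeR 0 of 10 were called and 0 had an unadjusted p under 0.05, and by DESeq2 0 were called. The shares over all genes were 0% and 1.01%. EXOSC5 (0.21 ± 0.13, unadjusted p = 0.147) and EXOSC1 (0.14 ± 0.13) were higher in both fusion libraries, 2 of 10 against 10.9% of all genes, and 0 of 10 were lower in both, against 10.2%. The 95% intervals come from a fit that leaves any difference by replicate number in the spread. They were -0.16 to 0.43 for EXOSC1 and -0.82 to 0.39 for EXOSC2.

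**Figure D3:**
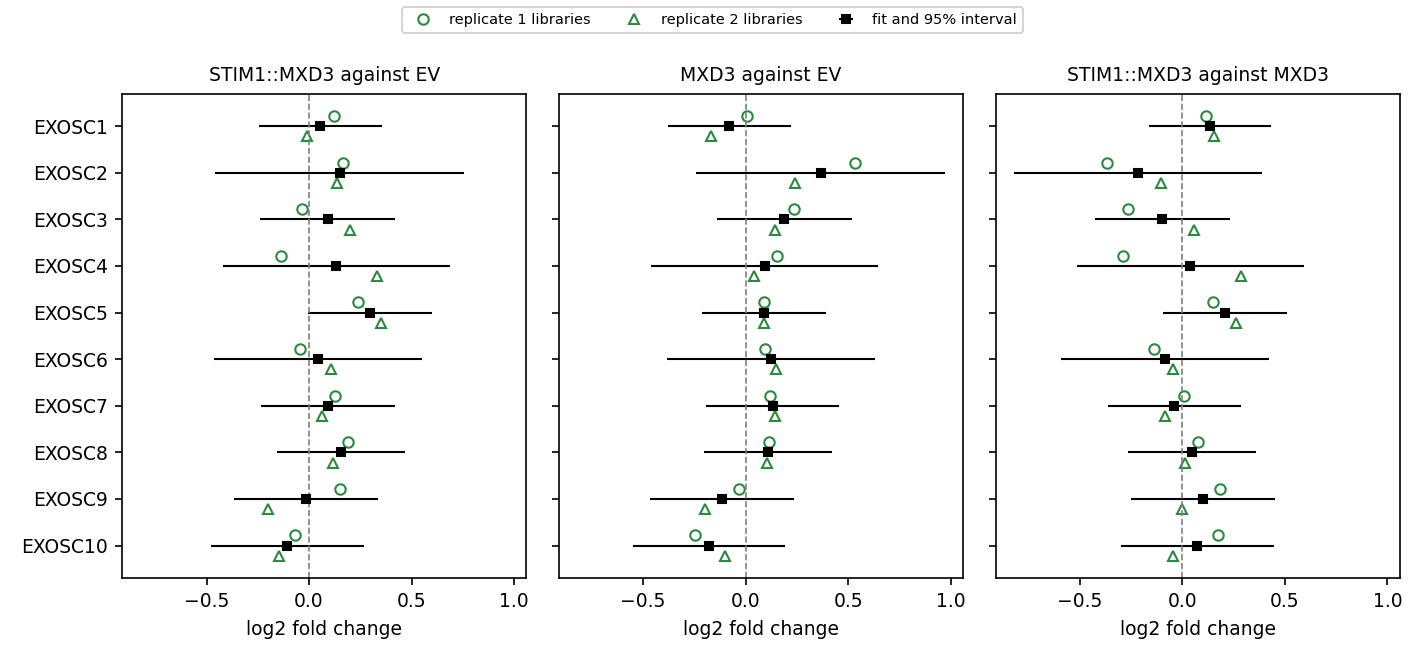
Log2 fold change of each subunit in the 3 comparisons. Squares and bars are the edgeR estimate and its 95% interval, and open circles and triangles are the differences within replicate 1 and within replicate 2. Every interval includes 0, and that of EXOSC5 with the fusion begins at -0.004.

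The largest fitted difference of any subunit lay between the 2 replicate numbers, a comparison added after the data had been seen. EXOSC1, EXOSC3, EXOSC5 and EXOSC8 instead had their largest fitted difference between plasmid groups. In a fit of replicate number beside plasmid group, 3 of 10 members were called higher in replicate 2, where 13.1% of all genes were, and 1 of 10 lower, where 16.1% were. The cap protein EXOSC2 was higher by 0.46 ± 0.09 on the log2 scale (1.38-fold, adjusted p = 0.00139 in edgeR). Its replicate 1 libraries had 23.3, 33.8 and 26.2 CPM in EV, MXD3 and the fusion, and its replicate 2 libraries 34.7, 41 and 38.1 CPM. The lowest replicate 2 library was above the highest replicate 1 library.

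The ring subunit EXOSC6 was higher in replicate 2 by 0.37 ± 0.09 (adjusted p = 0.00416 in edgeR). Replicate 1 had 28.4, 30.4 and 27.6 CPM in the same order and replicate 2 had 35.1, 38.9 and 37.8 CPM, again with no overlap. EXOSC4, also in the ring, was higher by 0.33 ± 0.11 (adjusted p = 0.0344 in edgeR). Its libraries had 20.9, 23.2 and 19.0 CPM in replicate 1 and 24.2, 24.9 and 30.5 CPM in replicate 2. Its difference was 0.68 in the fusion, 0.22 in EV and 0.11 with MXD3, so 1 group held most of it, and the call was lost without replicate 1 of the fusion (0.16, adjusted p = 0.362 in edgeR) or without its replicate 2 (0.18, adjusted p = 0.30).

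EXOSC10 was the member called lower in replicate 2, with a log2 difference of -0.22 ± 0.07 (adjusted p = 0.0227 in edgeR). It had 198.8, 167.7 and 189.3 CPM in replicate 1 and 167.8, 156.3 and 151.5 CPM in replicate 2, and replicate 2 of EV and replicate 1 of MXD3 overlapped. The call was lost, with a similar estimate of -0.21, without EV replicate 1 (adjusted p = 0.0797 in edgeR) or EV replicate 2 (0.0816). It was also lost without fusion replicate 1 (-0.17, adjusted p = 0.109 in edgeR) or fusion replicate 2 (-0.15, 0.142). Values for the members that were not called were 0.14 for EXOSC7, 0.08 for EXOSC3, -0.02 for EXOSC1, -0.03 for EXOSC5, -0.12 for EXOSC8 and -0.15 for EXOSC9. For EXOSC5, with the largest difference by the fusion, the 95% interval between the replicate numbers was -0.21 to 0.15. The 4 called subunits went both ways, and the median over the 10 was 0.03. The mean levels of 7 of 7 K562 markers were lower in replicate 2 (HBZ 307 CPM in replicate 1 and 164 CPM in replicate 2, TAL1 219 and 216 CPM). Within EV, TAL1 was higher in replicate 2 (227 and 236 CPM). The epithelial marker EPCAM was also lower (93.3 and 79.2 CPM), and 7611 of all 15431 genes had a negative fitted value. The part of the K562 markers in these differences was not tested.

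**Figure D4:**
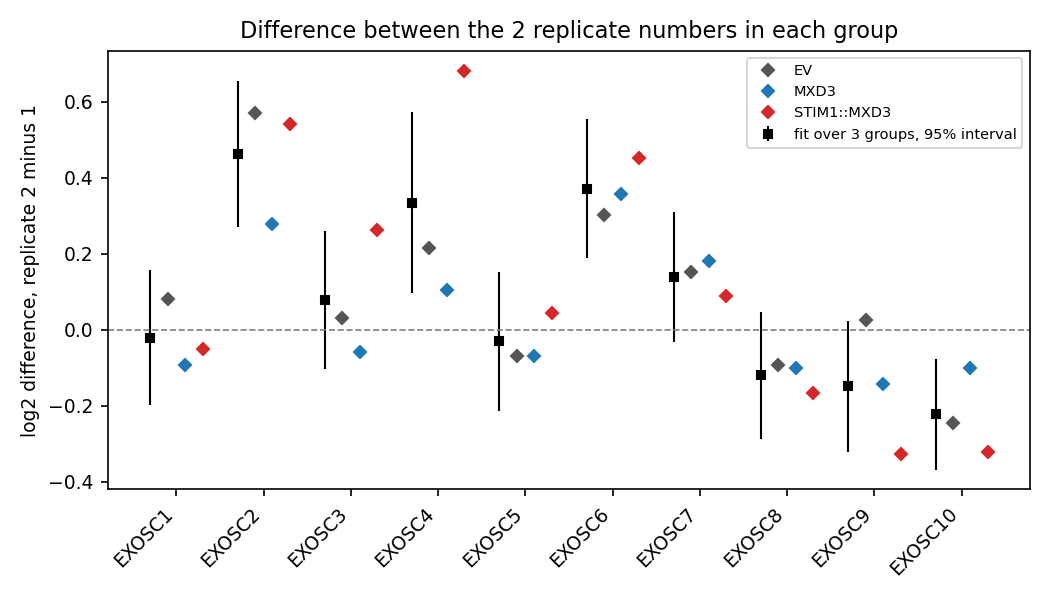
Log2 difference of replicate 2 minus replicate 1 for each subunit. Diamonds are the single differences in EV, MXD3 and STIM1::MXD3, and squares and bars are the edgeR estimate over the 3 groups with its 95% interval. EXOSC2, EXOSC4, EXOSC6 and EXOSC7 lie above 0 in all 3 groups, and EXOSC8 and EXOSC10 below 0 in all 3.

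Genes that work with the exosome did not pass the test either. Of 23 listed nucleases and cofactors, 22 were tested, and SKIC2, a helicase of the cytoplasmic cofactor complex, was not, at 0.03 to 0.13 CPM. SKIC3 and SKIC8, listed with it as cytoplasmic cofactors, had 190.5 to 249.3 CPM and 42.1 to 55.05 CPM. How reads were assigned at SKIC2 is not known, so whether the gene is silent in K562 cannot be told. In edgeR 0 of 22 were called and 0 had an unadjusted p under 0.05 in each of the 3 plasmid comparisons, and DESeq2 called 0. The medians were -0.0012 with the fusion, 0.02 with MXD3 and -0.04 between them. DIS3, the processive nuclease of the core, had 74.5 to 88.1 CPM, and MTREX, the helicase that feeds nuclear RNA to the complex, 188 to 215 CPM. The smallest unadjusted p-values belonged to NCBP1, a cap-binding subunit (0.13 ± 0.12), and SKIC8 (0.16 ± 0.15) with the fusion, to NCBP1 (0.19 ± 0.12) and the cytoplasmic nuclease DIS3L (0.19 ± 0.13) with MXD3, and to ZC3H18 (-0.14 ± 0.11) and ZFC3H1 (-0.17 ± 0.21) between the inserts.

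The 5'-to-3' decay pathway, which degrades mRNA from the other end, was set beside them. Of its 10 listed genes 9 were tested. DXO, at 0 to 0.04 CPM, was not, and whether it is silent cannot be told either. In edgeR 0 of the 9 were called and 0 had an unadjusted p under 0.05 in any plasmid comparison, and DESeq2 called 0. The medians were -0.06, -0.04 and 0.02. The smallest unadjusted p-values belonged to the exonuclease XRN1 with the fusion (-0.20 ± 0.20), the decapping enzyme DCP2 with MXD3 (-0.28 ± 0.25) and DCP1B between the inserts (0.20 ± 0.23).

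Between the replicate numbers, 2 of 22 exosome partners were called higher and 5 lower in replicate 2, where 13.1% and 16.1% of all genes were. The nuclear poly(A)-binding protein PABPN1 (0.54 ± 0.07) and its partner in the nuclear targeting complex, ZFC3H1 (0.38 ± 0.07), were higher. RBM7 (-0.42 ± 0.08), TENT4B (-0.39 ± 0.11), ZC3H3 (-0.34 ± 0.08), ZCCHC7 (-0.26 ± 0.08) and SKIC3 (-0.21 ± 0.07) were lower. TENT4B and ZCCHC7 are the polymerase and the zinc-knuckle protein of the TRAMP complex, and RBM7 an RNA-binding subunit of the NEXT complex. ZCCHC8, also of NEXT, had 0.15 ± 0.08, and the helicase MTREX had -0.08 ± 0.07. Neither was called, so the calls are of single genes and not of whole complexes. Of the 9 decay genes 4 were called lower, namely DCP2 (-0.46 ± 0.08), PATL1 (-0.43 ± 0.08), DCP1A (-0.40 ± 0.09) and XRN1 (-0.30 ± 0.08), and 0 higher, against the same shares of all genes. An unadjusted p under 0.05 was found for 4 of the 9 and for 6137 of all 15431 genes.

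The profile of the complex as a whole was summarised by the mean over members of log2 CPM, each centred on its own mean. It was -0.10 and -0.0043 in EV, 0.0046 and 0.04 with MXD3, and -0.03 and 0.09 with the fusion, in replicate 1 and 2. Replicate 2 was above replicate 1 in each group. The fusion libraries overlapped those of EV and of MXD3. Both MXD3 libraries lay above both EV libraries, although EV replicate 2 (-0.0043) and MXD3 replicate 1 (0.0046) were close. That difference was not tested. The higher mean in replicate 2 was not shared by all members. In the fit between replicate numbers 5 were positive and 5 negative, with a median of 0.03. The largest values were those of EXOSC2 (0.46), EXOSC6 (0.37) and EXOSC4 (0.33). The 3 genes with the most similar profile, among 10126 compared, were GLB1L2 (Pearson r = 0.996 over 6 libraries), INTS14, an Integrator subunit (0.995), and the RNA cytosine methyltransferase NSUN2 (0.993). NSUN2 had 104 and 126 CPM in EV and 117 and 153 CPM with the fusion, with the higher level in replicate 2 in both. The 6 points share libraries, groups and replicate numbers, and 141 genes had an r above 0.95, so the ranking is a description.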

How the data were processed

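Poly(A)-enriched RNA from 6 libraries of K562 cells, 2 for each of 3 plasmid groups, was sequenced. The authors deposited raw counts per NCBI Gene ID. The submitters' processing notes name HISAT2 2.2.1, featureCounts 2.0.1 and hg19. The gene annotation, the use of strand and whether ends or pairs were counted are not given in the sources used here. Of 25702 identifiers, 92.2% were matched to a symbol, and unmatched ones held at most 0.276% of counts.

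Genes were kept by filterByExpr and tested in edgeR 4.0.16 (R 4.3.3) with TMM scaling, 1 coefficient per group over 6 libraries, the quasi-likelihood test and Benjamini-Hochberg adjustment over 15431 genes. Calls had an adjusted p under 0.05 and tests were two-sided. The test was checked on simulated data. An exact permutation test of 2 against 2 libraries cannot go below p = 0.333, so none was run. Alternatives included DESeq2 1.42.0, its size factors, no filter, a replicate block and leaving out each library. Log2 CPM used a prior count of 2. Lengths came from GENCODE v44 lifted to GRCh37.

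The members and gene lists were chosen with earlier results of these data known. Genes named were all members, MXD3 and STIM1, every called gene of the partner lists, per comparison the 2 partners and 1 decay gene with the smallest unadjusted p, and the 3 genes most like the members. The cell type markers, DIS3, MTREX, ZCCHC8, CCNA2, SKIC2, DXO, the pseudogenes and the genes overlapping members were named beyond this rule, with values known. In the plasmid comparisons p-values measure the spread between the 2 libraries of a group, which includes any difference by replicate number. Between the replicate numbers they measure how far that difference varied over the 3 groups.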

Additional observations from a re-analysis of the deposited data

How the results depend on the processing

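The count of called subunits in the 3 plasmid comparisons stayed at 0 under each alternative run, while counts over all genes and calls between the replicate numbers moved as given below. DESeq2 called 3 genes of all those tested with the fusion, 3 with MXD3 and 1 between the inserts, and without the filter on low counts edgeR called 2 with the fusion and 1 between the inserts. With only the 4 libraries of the comparison in the fit, the median of the 10 subunits with the fusion was 0.080.

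Groups share replicate numbers 1 and 2, and no source says that a number marks a shared day or batch. Deviations of same-numbered libraries correlated across 15431 genes at 0.36 (fusion and EV), 0.27 (MXD3 and EV) and 0.45 (fusion and MXD3), and at 0.71, 0.62 and 0.79 across the 10250 genes averaging 5 CPM or more, the subunits among them. With a replicate block edgeR called 3, 45 and 1 genes in the fusion, MXD3 and between-insert comparisons. The edgeR fit with the block gave 1 subunit with an unadjusted p under 0.05 in each, namely EXOSC5 (0.30 ± 0.11, adjusted p = 0.489), EXOSC2 (0.39 ± 0.11, adjusted p = 0.140) and EXOSC2 (-0.24 ± 0.11, adjusted p = 0.760), and no subunit was called.

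Leaving out 1 library in turn, with the lone library assumed to vary like the other groups, gave these lowest and highest values. The median of the subunits was 0.022 to 0.18 with the fusion, 0.025 to 0.14 with MXD3 and 0.012 to 0.051 between the inserts. The genes called with MXD3 were 1 to 2, and 0 to 1 subunits had an unadjusted p under 0.05 with the fusion. With the fusion, the log2 fold change ran from -0.27 to 0.040 for EXOSC10, -0.21 to 0.25 for EXOSC6, -0.19 to 0.13 for EXOSC9, -0.26 to 0.44 for EXOSC4, -0.055 to 0.22 for EXOSC3 and -0.16 to 0.46 for EXOSC2. With MXD3 it ran from -0.075 to 0.31 for EXOSC6 and -0.0083 to 0.21 for EXOSC4. Between the inserts it ran from -0.10 to 0.22 for EXOSC10, -0.039 to 0.12 for EXOSC8, -0.34 to 0.12 for EXOSC6, -0.14 to 0.064 for EXOSC7, -0.075 to 0.25 for EXOSC9, -0.35 to 0.34 for EXOSC4, -0.25 to 0.026 for EXOSC3 and -0.52 to 0.028 for EXOSC2. EXOSC5 kept a positive value in each of these 3 comparisons.

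Between the replicate numbers, leaving out 1 library gave 2580 to 4424 called genes and 2 to 4 called subunits. The counts were lowest without either fusion library, when EXOSC4 and EXOSC10 lost their calls, and EXOSC2 and EXOSC6 were called in each fit. In this fit a lone library of a group tells nothing of replicate number. Leaving out either library of a group therefore drops that group, and the 2 fits are close to the same check. Values ran from -0.074 to 0.029 for EXOSC1, -0.069 to 0.0029 for EXOSC5 and -0.016 to 0.16 for EXOSC3. The cause of these shifts was not tested.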
